A study of Mus musculus with 4 samples.

Results

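Anti-NR2F1 single-cell CUT&Tag was examined at the regions that were called as peaks in both Fam5snv/snv libraries and in neither WT library. Overlapping peaks (by 1 bp or more) were joined across the 4 libraries, and a joined region was kept when it lay on chromosomes 1 to 19, had a peak in both mutant libraries, had none in WT, and held at least 20 cut sites in each mutant library. A cut site is an end of a DNA fragment released by the transposase Tn5, which the antibody brings to NR2F1, and is the unit of signal. The rule kept 5218 regions of 263639 merged in all, or 2.00% of the 260896 on chromosomes 1 to 19. They are called mutant-only regions below, which describes peak calls and not the presence of the protein. The regions were thus chosen by their peak calls and by their mutant cut sites. A WT library has no count where it has no peak, so their signal in the mutant over that in WT could not be computed and no test of genotype is given.

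WT;Isl1MN-GFP and Fam5snv/snv;Isl1MN-GFP mouse embryos were compared at embryonic day 10.5. Both genotypes carried the GFP reporter that marks motor neurons, and the mutant embryos were homozygous for the Fam5 single-nucleotide variant knocked into the cRE2 element near Gata2. Each genotype had 2 libraries, from pools of 26 and 26 WT embryos and of 8 and 16 mutant embryos, and each library was made from dissected rhombomere 4 (r4) tissue sorted for GFP, with the gate widened to GFP-negative cells as each sort finished. Motor neurons (r4MNs) and other cells of the tissue can therefore both be among the barcodes. All 4 libraries had a peak at the promoters of the r4 motor neuron markers Isl1, Hoxb1, Chat, Slc18a3 and Tbx20. They also all had one at 11 of 12 autosomal markers of progenitors, neural crest, endothelium and blood, the exception being Cdh5, called only in Fam5snv/snv replicate 2, so a promoter peak did not separate motor neurons from other cells. No mutant-only region lay at any of these promoters.

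NR2F1 (COUP-TF1) is an orphan nuclear receptor with roles in patterning and in the differentiation of neurons. COUP-TFs bind DNA as dimers at the half-site AGGTCA, often at direct repeats of it. Rhombomere 4 gives rise to facial branchial motor neurons and inner-ear efferent neurons, and its identity depends on HOX proteins, which bind DNA together with PBX cofactors at sites such as TGATTNAT, where N is any base. The study asked whether NR2F1 occupies the element around the variant in r4MNs and whether the variant alters this.

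Sequences of 3 kinds are shown because the motif results below turn on them, all from the reference assembly GRCm38 (mm10 coordinates), 5′ to 3′ on the strand given, with the motif in capitals. The first are 4 of the 6 strongest mutant-only regions with an exact direct repeat, 2 copies of AGGTCA with 1 base between them, within 250 bp of the midpoint.
Lacc1, chr14:77003647-77003707, reverse strand: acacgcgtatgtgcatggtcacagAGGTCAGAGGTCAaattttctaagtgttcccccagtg
Frmd4a, chr2:4335458-4335518, reverse strand: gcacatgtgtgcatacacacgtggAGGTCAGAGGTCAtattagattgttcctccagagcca
Ap2a2, chr7:141569575-141569635, reverse strand: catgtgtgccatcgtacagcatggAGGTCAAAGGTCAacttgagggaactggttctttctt
Gm17728, chr17:9509098-9509158, forward strand: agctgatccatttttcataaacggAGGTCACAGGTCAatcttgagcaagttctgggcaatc

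The next show TGATTGAT, the spelling of TGATTNAT found most often in mutant-only regions, within 100 bp of the midpoint. They are 4 of the strongest such regions in introns or between genes, and both the spelling and these regions were chosen after their values were seen.
Tcerg1l, chr7:138238142-138238201, forward strand: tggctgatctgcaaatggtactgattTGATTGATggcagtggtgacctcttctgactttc
Fam19a4, chr6:97022367-97022426, reverse strand: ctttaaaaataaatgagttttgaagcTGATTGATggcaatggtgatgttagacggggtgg
Gnaq, chr19:16188332-16188391, forward strand: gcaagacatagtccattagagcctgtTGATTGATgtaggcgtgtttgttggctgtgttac
Tox3, chr8:90460622-90460681, reverse strand: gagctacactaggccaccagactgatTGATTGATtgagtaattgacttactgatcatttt

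The last show the half-site AGGTCA in 3 of the strongest mutant-only regions that held it within 100 bp of the midpoint. Each region is named by the protein-coding gene whose transcription start site (TSS) is nearest, which does not mean that the region regulates this gene.
Dusp26, chr8:30570422-30570481, reverse strand: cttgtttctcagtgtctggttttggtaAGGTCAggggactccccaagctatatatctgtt
Rapgef5, chr12:117468018-117468077, reverse strand: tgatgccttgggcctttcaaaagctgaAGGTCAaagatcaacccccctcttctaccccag
Tnr, chr1:159901155-159901214, reverse strand: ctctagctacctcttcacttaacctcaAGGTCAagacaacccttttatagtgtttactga

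The libraries differed in how many peaks were called and in depth, taken here as the cut sites within a library's own peaks. These peaks covered 31.0 and 93.1 Mb in WT replicates 1 and 2, and 108 and 143 Mb in Fam5snv/snv replicates 1 and 2. Fewer or narrower peaks thus also lower such a total. WT replicates 1 and 2 held 3083946 and 3580517 cut sites in 42168 and 151951 peaks, and Fam5snv/snv replicates 1 and 2 held 8967987 and 10341894 cut sites in 137996 and 170993 peaks. A count of 20 cut sites was 6.49 and 5.59 CPM (cut sites per 1000000 cut sites of the library in peaks) in the WT libraries but 2.23 and 1.93 CPM in the mutant libraries. Among peaks of 500 to 1500 bp, the 5th percentile was 30 cut sites in WT replicate 1, 10 in WT replicate 2, and 20 and 18 in the mutant libraries. WT replicate 1 thus had the fewest peaks and, at this width, the ones with most cut sites, whereas WT replicate 2 called peaks with fewer cut sites than any other library.

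The call in both mutant libraries alone was one of the common patterns. A peak in Fam5snv/snv replicate 2 alone was found in 63599 regions, in WT replicate 2 alone in 57101, in all 4 libraries in 35276, and in both mutant libraries alone in 22910, of which 5218 reached 20 cut sites in each and 17692 did not. The mirror pattern, a peak in both WT libraries alone, was found in 47 regions, of which 3 (0.00115% of regions) held at least 20 cut sites in each WT library. A peak in WT replicate 1 alone was found in 171 regions. With a minimum of 2.23 CPM, the same share of every library, 4475 regions were called in both mutant libraries alone, 25 in both WT libraries alone, 1265 in WT replicate 2 and Fam5snv/snv replicate 2 alone, and 469 in WT replicate 2 and Fam5snv/snv replicate 1 alone. WT replicate 2 alone had 12080 regions at this minimum, more than the 4494 of Fam5snv/snv replicate 2 alone and the 2163 of Fam5snv/snv replicate 1 alone.

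**Figure D1:**
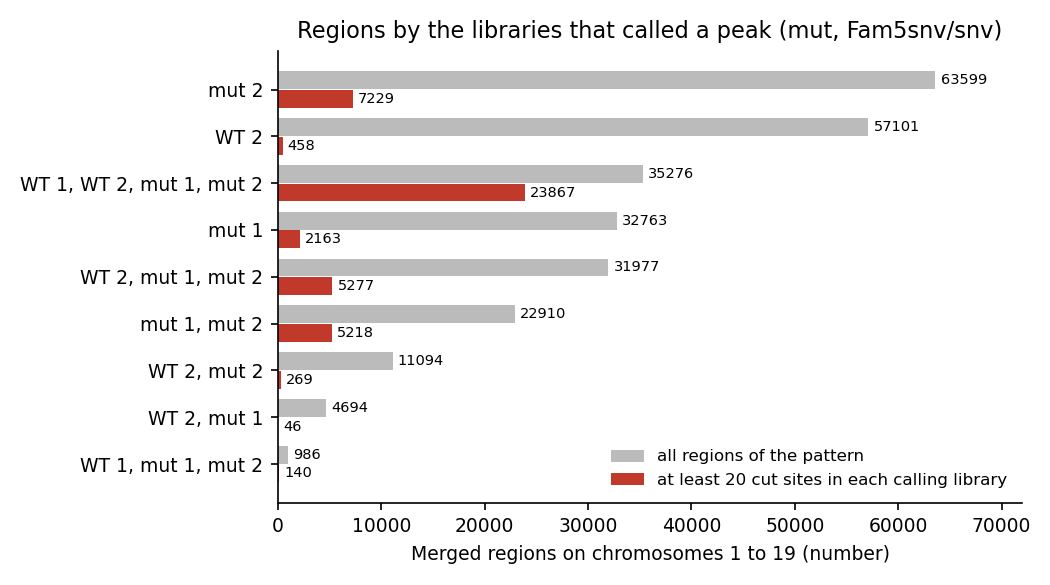
Number of merged regions on chromosomes 1 to 19 (x axis) for the 9 commonest sets of libraries that called a peak (y axis; mut, Fam5snv/snv). Grey bars count all regions and red bars those with at least 20 cut sites in each library that called them; the mutant pair alone has 22910 and 5218.

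Mutant-only regions carried little of the signal. They held 2.06% of the cut sites of Fam5snv/snv replicate 1 and 2.10% of those of replicate 2. Replicate 1 had 20 to 178 cut sites per region with a median of 31, and replicate 2 had 20 to 207 with a median of 36, or medians of 3.46 and 3.48 CPM. The mean over both libraries was 2.08 to 17.1 CPM with a median of 3.59 CPM, 3235 regions (62.0%) lay at or below 4 CPM and 34 lay above 10 CPM. The 52536 regions with the same minimum in both mutant libraries and a peak in at least 1 WT library, called WT-shared regions below, had a median of 8.86 CPM. The mutant-only regions were therefore mostly at the weak end of what both mutant libraries called.

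The level of a region in the mutant libraries went with whether WT called it. Of the 57754 regions with peaks and at least 20 cut sites in both mutant libraries, 9.03% lacked a WT peak. The share was 39.0% at 2 to 2.5 CPM, 24.7% at 3 to 4 CPM, 11.1% at 5 to 6 CPM, 1.99% at 8 to 10 CPM and 0.739% at 10 to 12 CPM. Above 12 CPM 8 regions lacked a WT peak, and above 24 CPM 0 of 9674 did. Over the same levels WT replicate 1 called 7.36% of regions at 2 to 2.5 CPM and 99.9% above 24 CPM, and WT replicate 2 called 59.6% and 100%.

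Library depth can be set beside these calls directly. If a WT library had held the same share of its cut sites in a mutant-only region as the mutant libraries did, the median region would have had 11.1 cut sites (6.42 to 52.7) in WT replicate 1 and 12.9 (7.45 to 61.2) in WT replicate 2. It would have had at least 20 in 357 regions and 693 regions, respectively. In WT replicate 1, 0% of the called peaks of 500 to 1500 bp held as few as that median, and 42 mutant-only regions would have reached the 5th percentile of such peaks. In WT replicate 2, 12.9% of such peaks held no more than the median, and 4150 mutant-only regions would have reached the 5th percentile. Over peaks of any width, narrower ones included, 16.9% in WT replicate 1 and 64.2% in WT replicate 2 held no more than the median. At the mutant share of signal, then, nearly all mutant-only regions would have been below the 5th percentile of WT replicate 1 peaks of 500 to 1500 bp, and most would have been above that of WT replicate 2. The counts at the mutant share rest on totals within called peaks and not on all fragments. The part of depth in the missing WT calls was not tested. Depth and genotype cannot be told apart here, since both mutant libraries held more cut sites in peaks than both WT libraries.

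**Figure D2:**
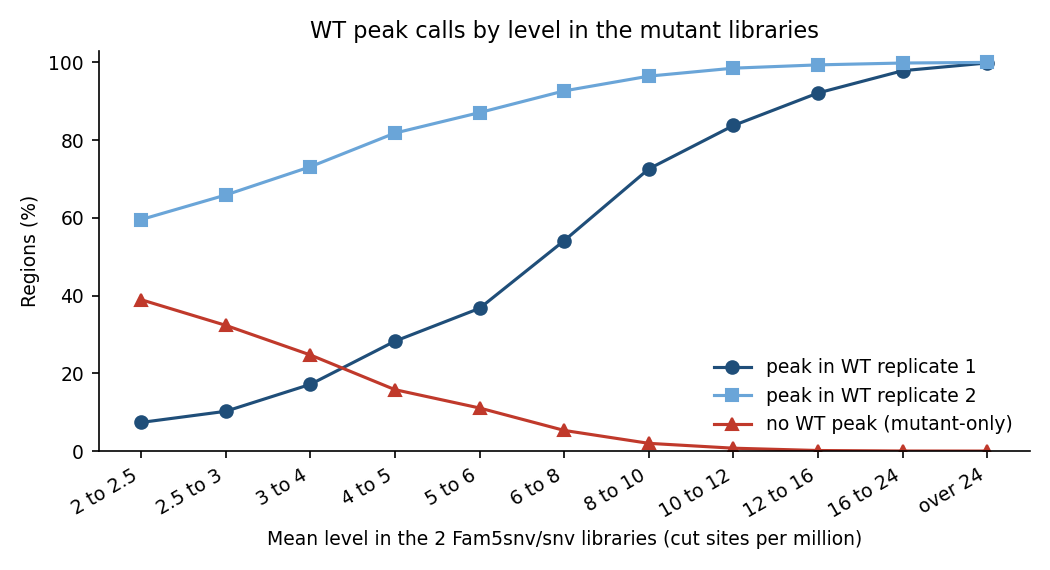
Share of regions (y axis, %) with a peak in WT replicate 1, with a peak in WT replicate 2, or with neither, by the mean level in the 2 Fam5snv/snv libraries (x axis, bins in CPM), among 57754 regions with peaks and at least 20 cut sites in both mutant libraries. The share with neither falls from 39.0% in the lowest bin to 0% in the highest while both WT curves rise.

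Leaving out WT libraries changed the number of mutant-only regions unequally. Without WT replicate 1 there were 5943 and without WT replicate 2 there were 22828. Absence from WT therefore rested mainly on the calls of WT replicate 2. Without Fam5snv/snv replicate 1 there were 18825 regions and without Fam5snv/snv replicate 2 there were 11470, so asking for both mutant libraries removed most of the regions that either would have given.

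The mutant libraries ranked mutant-only regions loosely. The rule itself requires peaks of both libraries to overlap in each region. The extent of overlap was not compared with that in other regions. In 5064 regions (97.0%) the peaks of both libraries overlapped over at least 50% of the shorter one, and the stretch covered by both had a median of 541 bp. The level differed by no more than 2-fold in 4632 regions (88.8%), and 2540 (48.7%) were higher in replicate 2. Across the 5218 regions, log2 CPM of the mutant replicates had Pearson's r = 0.39 and Spearman's rho = 0.34. Across WT-shared regions r was 0.92. The minimum in both libraries and the absence of strong regions narrow the range over which mutant-only regions can vary, and the regions of 1 library share its depth, so these values are a description and not a test.

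**Figure D3:**
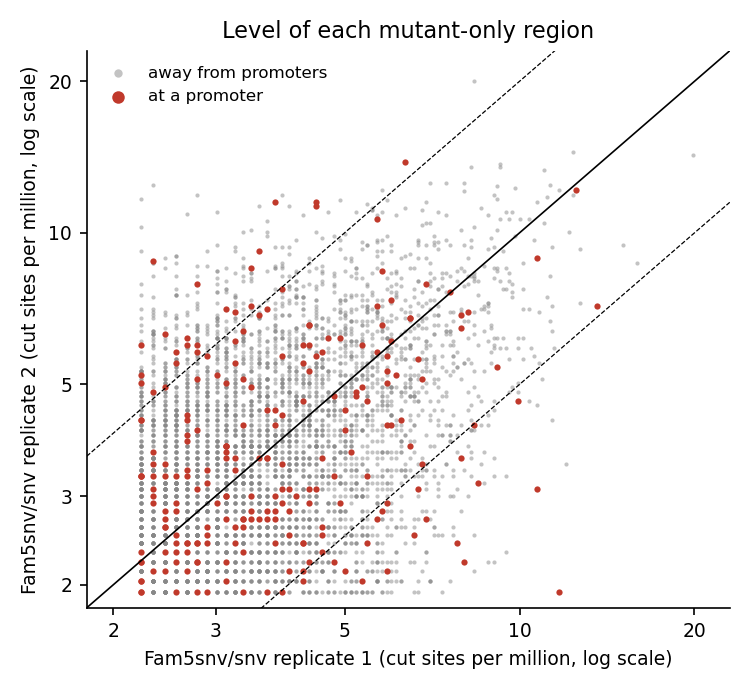
Level of each of the 5218 mutant-only regions in Fam5snv/snv replicate 1 (x axis) and replicate 2 (y axis), in CPM on log scales. Red points are the 225 regions at a promoter, the solid line marks equal levels and the dashed lines a 2-fold difference; 4632 points lie within them.

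The cut sites of a mutant-only region came from several barcodes, with few in each. The median region had 1.78 (replicate 1) and 1.83 (replicate 2) cut sites per barcode with any, so the number of barcodes largely follows that of cut sites. A mutant-only region had a cut site in a median of 18 barcodes (7 to 77) of 2274 in replicate 1 and 20 (7 to 91) of 2740 in replicate 2, or 0.792% and 0.730% of barcodes. The barcode with the most cut sites gave a median of 10.3% and 9.26% of those of a region, and more than 50% in only 5 and 1 regions. Every barcode of both mutant libraries had a cut site in at least 1 mutant-only region. Each barcode held at least 1000 cut sites, so this alone says little about spread. The share of a barcode's cut sites that lay in mutant-only regions had a median of 1.97% in replicate 1 and 2.04% in replicate 2. The 95th percentiles were 2.97% and 2.89%, or 2.48 and 2.24 times the 5th percentiles. In regions called in all 4 libraries, which held 79.1% and 73.3% of the cut sites, these ratios were 1.14 and 1.15. In regions called in both mutant libraries and WT replicate 2 alone, with the same minimum, they were 1.72 and 1.49. Those regions held 9.21% and 9.44% of the cut sites. A share made of fewer cut sites spreads more by sampling alone, so these ratios do not compare the spread between cells. The cut sites of a region thus seldom came mainly from 1 barcode.

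Mutant-only regions were narrower than WT-shared regions, though wider than merged regions as a whole, and most lay away from promoters. Their width was 316 to 4602 bp with a median of 935 bp, against 1657 bp in WT-shared regions and 361 bp over all merged regions. Width is that of all peaks joined, which came from more libraries in WT-shared regions and often from fewer in all merged regions. These widths are therefore not like for like. A promoter, taken as 1 kb on either side of a TSS of a protein-coding transcript, was reached by 225 of them (4.31%), against 26.7% of WT-shared regions, 35.0% of regions called in all 4 libraries and 7.91% of all regions. Without WT replicate 2 the promoter share was 8.57%. By their midpoint, 46.2% lay in introns, 45.3% between genes, 2.49% in UTR exons and 1.74% in coding exons. The median distance to the nearest such TSS was 34552 bp, against 14933.5 bp in WT-shared regions. More than 100 kb from any TSS of a protein-coding transcript lay 25.4% against 16.4%.

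Weak regions of other patterns had a like promoter share. Regions called in both mutant libraries alone but under the minimum reached a promoter in 3.41% of cases, those called in Fam5snv/snv replicate 1 alone in 4.39% and in replicate 2 alone in 3.69%, and those called in WT replicate 2 alone in 4.59% of 458 (the last 3 with at least 20 cut sites). Mutant-only regions lay farther from a TSS than these sets, whose median distances were 22118.5 to 28287.5 bp and of which 19.5% to 22.7% lay more than 100 kb away. At matched mutant level the difference from WT-shared regions was smaller but kept its direction, with 3.79% against 7.95% at 3 to 4 CPM and 5.91% against 15.0% at 6 to 8 CPM. From 2.5 CPM up, mutant-only regions were also slightly wider in covered length than WT-shared regions of the same class of level, with 719.75 bp against 691 bp at 3 to 4 CPM and 1277.5 bp against 1166.5 bp at 6 to 8 CPM. At these levels their signal was thus spread over more bases. Repeats made up 13.9% of mutant-only and 13.7% of WT-shared sequence.

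**Figure D4:**
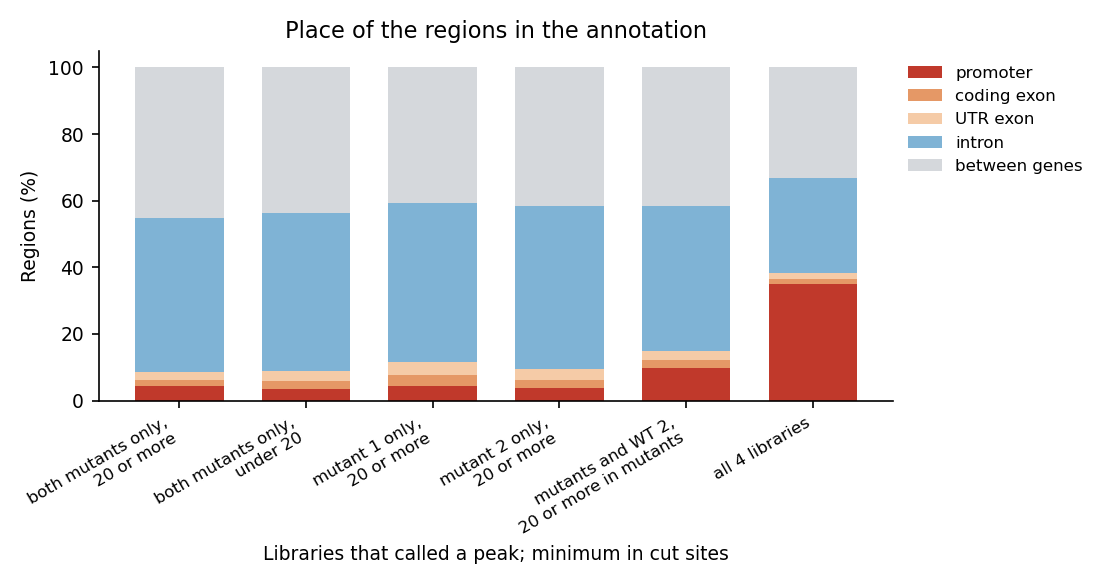
Place of merged regions in the annotation (y axis, % of regions; a promoter is 1 kb on either side of a TSS, other places are by midpoint) for 6 sets of calling libraries (x axis). Promoters make up 4.31% of the mutant-only regions at the left and 35.0% of the regions called in all 4 libraries at the right.

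Many mutant-only regions lay near DNA that was also called in WT, mainly in WT replicate 2. A WT peak was found within 1 kb of 1150 (22.0%), within 5 kb of 3594 (68.9%) and within 10 kb of 83.7%, at a median gap of 2528 bp. The median gap was 10399 bp to peaks of WT replicate 1 and 2558 bp to those of WT replicate 2, and without WT replicate 2 the share with a WT peak within 5 kb was 33.6%. Regions of at least 20 cut sites called in 1 mutant library alone had a WT peak within 5 kb in 76.0% (replicate 1) and 73.3% (replicate 2). Only 75 mutant-only regions were more than 50 kb from a WT peak. Of the mutant-only regions, 620 (11.9%) lay within 10 kb of another, and the median gap to the next was 80.0 kb. The share of regions lacking a WT peak ran from 8.01% on chromosome 19 to 10.7% on chromosome 16, and no chromosome held most of them.

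The strongest mutant-only region lay between genes, 26.9 kb downstream of the TSS of Lhx3, which encodes a LIM-homeodomain factor of motor neuron and interneuron development (chr2:26175064-26179665, mm10). It had 178 cut sites in Fam5snv/snv replicate 1 and 148 in replicate 2, in 77 and 65 barcodes, was also the widest at 4602 bp, and lay 902 bp from a WT peak. The region 518 kb upstream of Dusp26, a protein phosphatase gene, had 75 and 207 cut sites (chr8:30569590-30571296, between genes), so it was mainly a region of replicate 2. That 145 kb upstream of Ftmt, which encodes mitochondrial ferritin, had 111 and 150 cut sites and no WT peak within 41.6 kb. The Dusp26 region lay 8.08 kb from a WT peak, so of these 3 only the Lhx3 region had one within 5 kb.

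The next strongest region overlapped a TSS of Ryr3, which encodes a calcium release channel of the endoplasmic reticulum (chr2:113029629-113031076), with 112 and 126 cut sites. An intronic region of Asb2, a subunit of a ubiquitin ligase, had 143 and 90 cut sites and lay 190 bp from a WT peak. A region in an intron of Slc9a9, with Chst2 as the gene of nearest TSS, had 135 and 98. Those nearest to Grik3, a kainate receptor subunit gene, and Xkr6 had 99 and 138, and 111 and 123. Those nearest to Snx18, an endosomal sorting nexin gene, and the protocadherin gene Pcdh1 had 105 and 126, and 101 and 129. All 10 of these strongest regions had at least 75 cut sites in each mutant library, and 5 of them were higher in replicate 2 by CPM.

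Besides the Lhx3 region, the widest were in introns of Ddr1, a collagen receptor gene (4164 bp, 75 and 106 cut sites), Evc, a gene of the primary cilium (3701 bp, 87 and 114), and Tspan18, a tetraspanin gene (3572 bp, 114 and 75). The region 33.0 kb upstream of Rarb, which encodes a retinoic acid receptor, was 3638 bp wide with 36 and 117 cut sites, and the library of replicate 1 covered only 1390 bp of it. The width of the Rarb region was thus that of replicate 2. In the Ddr1 and Evc regions neither library covered the full width. Replicates 1 and 2 covered 2709 and 2882 bp at Ddr1, and 2502 and 2996 bp at Evc.

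At the minimum, 475 mutant-only regions had 20 cut sites in the library with fewer, and 522 regions of the same calls had 19 and were left out. Those nearest to Mrm1, Etl4 and Ccn5 were just inside with 20 cut sites in each library. Those nearest to Otos, Ralb and Stxbp5 were just outside with 19 in each.

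Genes of several roles had a mutant-only region within 1 kb of an annotated TSS. Among hindbrain patterning genes, the regions at Hoxa3 (chr6:52184486-52186174) and Hoxd3 (chr2:74737797-74739357), which encode homeodomain factors of the caudal hindbrain, had 26 and 59 cut sites, and 22 and 34. The region at Fgf8, a secreted signal of the embryonic brain (chr19:45741006-45742151), had 41 and 26. Of these, the Fgf8 region was higher in replicate 1 and the Hox regions in replicate 2.

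Among genes of axon guidance and adhesion, Robo2, a receptor for Slit ligands (chr16:73932880-73933603), had 20 and 34 cut sites, and Sema3f, a secreted semaphorin (chr9:107692919-107693908), had 39 and 30. The adhesion genes Opcml (chr9:27790785-27791735) and Cntnap4 (chr8:112570660-112571927) had 49 and 34, and 24 and 45. The presynaptic adhesion gene Nrxn3 had 39 and 68 (chr12:89193612-89194259), in a region 38.1 kb from the nearest WT peak. Several of these genes have more than 1 annotated start. Hoxa3, Hoxd3, Nrxn3, Opcml, Robo2 and Sema3f each had another promoter region with a peak in all 4 libraries, at up to 57.1 CPM for Sema3f. At these genes the missing WT call therefore concerned 1 start and not the gene.

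Around the gene near the variant, 5 mutant-only regions lay within 500 kb of Gata2, a zinc finger factor needed for inner-ear efferent neurons. The strongest, in an intron of Dnajb8, had 67 and 86 cut sites (chr6:88238739-88241564) and lay 793 bp from a WT peak. Regions nearest to Rpn1 had 52 and 69 cut sites (chr6:88114265-88116853) and 56 and 59 (chr6:88108512-88110249), 83 bp and 2100 bp from a WT peak. That in an intron of Eefsec had 39 and 36 (chr6:88315202-88315931), and that 43.5 kb upstream of Gata2 had 34 and 22 (chr6:88149721-88150388). They were 9.80% of the 51 regions with the minimum in both mutant libraries in this window, beside 9.03% over all such regions. All 5 were within 5.32 kb of a WT peak.

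Within 500 kb of Gata3, which acts with Gata2 in these neurons, 1 mutant-only region was found, nearest to Sfmbt2, with 40 and 41 cut sites, out of 19 regions with the minimum. Nr2f1, the gene of the profiled protein, had 0 of 20. Its paralogue Nr2f2 had 4 of 31 (12.9%), all upstream and between genes, from 220 kb to 473 kb from the TSS. They held 51 and 60, 27 and 34, 33 and 63, and 56 and 84 cut sites, in order of distance. All 4 were higher in replicate 2, by count and by CPM.

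The 5218 regions were nearest to 3363 protein-coding genes, of which 2299 had 1 and 89 had at least 5. The counts that follow were chosen after they were seen. Rbfox3, which encodes the neuronal splicing factor NeuN, and Zfp608 had 11 each, out of 52 and 57 regions with the minimum in both mutant libraries. Rybp, a Polycomb component gene, had 10 of 46, the kinase gene Vrk1 10 of 49, and Wwc1, a Hippo pathway gene, 10 of 33. These shares, 19.3% to 30.3% of a gene's regions, stand beside 9.03% over all such regions, and the genes were picked for their counts.

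Lists of genes were compared by the share of regions nearest to their members. Neuronal adhesion genes accounted for 60 mutant-only regions, 1.15% against 0.674% of WT-shared regions and 0.879% of all regions. Cdh4, a cadherin gene, had 8 of its 67 regions and Nrcam, a cell adhesion gene of axons, 5 of 16. Axon guidance genes accounted for 56 (1.07% against 0.933%), with Robo2 at 7 of 32 and the semaphorin receptor gene Nrp2 at 6 of 32. Synaptic and channel genes accounted for 23 (0.441% against 0.286%), with the NMDA receptor subunit gene Grin2b at 4 of 9 and the potassium channel gene Kcnma1 at 3 of 17. Beside the 9.03% of all such regions that lacked a WT peak, the shares in these lists were 14.5% for adhesion, 10.3% for guidance and 13.3% for synaptic genes.

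Transcription factor lists lay on both sides of the overall share. Motor neuron factors had 29 mutant-only regions, or 10.8% of their regions with the minimum, with Ebf1, a factor of neuronal differentiation, at 7 of 32 and Tbx3 at 5 of 29. Hox genes and their cofactors had 19 (12.3%), with Meis1, a cofactor of HOX proteins, at 5 of 36. Neuronal progenitor factors had 29 (11.6%), with Irx3 at 5 of 36 and Sox1 at 4 of 16. Proneural and neuronal factors had 5 (3.76%), with Myt1l at 2 of 30 and Insm1 at 1 of 13. Interneuron factors had 16 (7.27%), with Lhx5 at 4 of 24.

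COUP-TF and retinoid receptor genes had 20 (9.26%), with Nr2f2 at 4 of 35 and the zinc finger repressor gene Bcl11b at 3 of 21. Hindbrain segmentation regulators had 15 (11.3%), with Cyp26b1, a retinoic acid-degrading enzyme gene, at 3 of 22 and Pax2 at 3 of 27, and inner-ear efferent regulators had 6 (9.84%), with Pou4f1 at 2 of 10 and Gata2 at 1 of 5. Notch and Wnt genes had 18 (8.74%), with the Wnt receptor gene Fzd10 at 5 of 14, and hedgehog pathway genes 7 (7.53%), with Gli2 at 3 of 24. Lists of other cell types had 16 (7.55%) for neural crest and mesenchyme, 5 (8.47%) for endothelium, with the VEGF receptor gene Kdr at 3 of 8, and 3 (6.82%) for blood. Housekeeping genes had 3 (7.50%). Among large families, zinc finger (Zfp) genes had 76 (7.72%), ribosomal protein genes 28 (8.95%), olfactory receptor genes 6 (8.45%), clustered protocadherin genes 1 (7.69%) and vomeronasal receptor genes 0. The lists hold few regions each, differ in place and level, and were not tested.

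The half-site AGGTCA, searched on both strands within 100 bp of the midpoint, was found in 1051 mutant-only regions (20.1%), against 16.4% of WT-shared regions and 18.0% of all regions. Windows were centred on the midpoints of joined regions, whose median widths were 935, 1657 and 361 bp in these sets. Motif shares are therefore not fully like for like. By GC content of the window the share with AGGTCA was higher in mutant-only than in WT-shared regions in each of 6 classes. The shares were 18.3% against 13.5% at up to 40% GC, 20.8% against 16.3% at 55 to 60% and 11.2% against 7.56% above 60%. In the classes with most mutant-only regions the gap was smaller. There it was 19.5% against 18.8% at 40 to 45%, 22.4% against 20.3% at 45 to 50% and 19.9% against 19.4% at 50 to 55%. By level the share with AGGTCA was the higher in 6 of the 7 classes from 2 to 10 CPM. At 2 to 2.5 CPM it was 22.7% against 19.98%, at 3 to 4 CPM 20.2% against 19.2%, and at 6 to 8 CPM 18.5% against 17.0%, whereas at 2.5 to 3 CPM it was 19.8% against 21.2%. Regions with few cut sites called in both mutant libraries alone, under the minimum, had 21.9%. The difference from WT-shared regions was thus mostly smaller within classes of level than overall.

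Exact direct repeats (AGGTCA, 1 base of any kind, AGGTCA), which contain the half-site, were found within 100 bp in 10 mutant-only regions (0.192%), against 145 (0.276%) WT-shared ones and 0.257% of all regions. Within 250 bp they were found in 19 (0.364%) against 0.621%. Of those shown above, the Lacc1 region lay 32.2 kb from the TSS with 45 and 63 cut sites. The intronic regions of Frmd4a and Ap2a2 had 36 and 52, and 24 and 62, and the Gm17728 region 27 and 57. Those nearest to Reep2 and Zfp532 had 35 and 65, and 25 and 63. Others, nearest to Slc28a3, Rnf216, Sim2 and a further TSS of Frmd4a, had 50 and 26, 51 and 21, 29 and 45, and 20 and 55. This repeat was thus less frequent in mutant-only than in WT-shared regions in these windows, on small counts.

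TGATTNAT, the HOX-PBX type site, differed more. It was found on either strand within 100 bp in 263 mutant-only regions (5.04%), against 1555 (2.96%) WT-shared regions and 3.04% of all regions. A promoter was reached by 4.31% of mutant-only but 26.7% of WT-shared regions, and the site was not compared by place. Within 250 bp the shares were 10.5% and 6.995%. Regions called in both mutant libraries alone but under the minimum had 4.30%, whereas regions of at least 20 cut sites called in Fam5snv/snv replicate 1 alone had 2.45%, in replicate 2 alone 3.32% and in WT replicate 2 alone 1.75% (8 of 458). Regions called in both mutant libraries and WT replicate 2 but not WT replicate 1, with the same minimum, had 3.38% (591 of 17489). The shares were thus highest where both mutant libraries called a region without WT, with or without the minimum.

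The site is rich in A and T, and mutant-only windows had a median GC content of 48.5% against 51.5% in WT-shared regions. The share with TGATTNAT was higher in mutant-only than in WT-shared regions in each of 6 classes of GC content, with 8.02% against 7.12% at up to 40% GC, 6.94% against 5.54% at 40 to 45%, 6.27% against 4.05% at 45 to 50%, 2.85% against 2.29% at 50 to 55%, 1.71% against 1.12% at 55 to 60% and 0.621% (of 161 mutant-only regions) against 0.235% above 60%. By level it was higher in each class from 2 to 8 CPM, with 5.87% against 2.91% at 2.5 to 3 CPM, 4.77% against 3.27% at 3 to 4 CPM and 4.03% against 3.15% at 6 to 8 CPM. At 8 to 10 CPM it was lower, 1.06% of 94 mutant-only regions against 3.54%. With at least 40 cut sites in each mutant library it was 3.17% of 945 regions against 2.77%, so the difference was mainly one of weak regions.

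Among the spellings of the site, TGATTGAT was found in 98 mutant-only regions (1.88% against 0.900% of WT-shared regions), TGATTTAT in 83 (1.59% against 0.889%), TGATTAAT in 56 (1.07% against 0.659%) and TGATTCAT in 40 (0.767% against 0.607%). The TGATTGAT regions shown above had 70 and 56 cut sites in an intron near Tcerg1l, 36 and 94 in an intron near Fam19a4, 53 and 69 in an intron near Gnaq, which encodes a G protein subunit, and 45 and 72 between genes near Tox3. The 263 regions with TGATTNAT were nearest to 248 genes, lay at a median of 52017 bp from a TSS, and reached a promoter in 1.14% of cases. WT-shared regions with the site lay at a median of 41440 bp and reached a promoter in 7.85%. AGGTCA was also present in 54 of the 263 mutant-only regions with TGATTNAT (20.5%), close to its share in all mutant-only regions. A match is a stretch of letters and not a measured site of any factor.

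**Figure D5:**
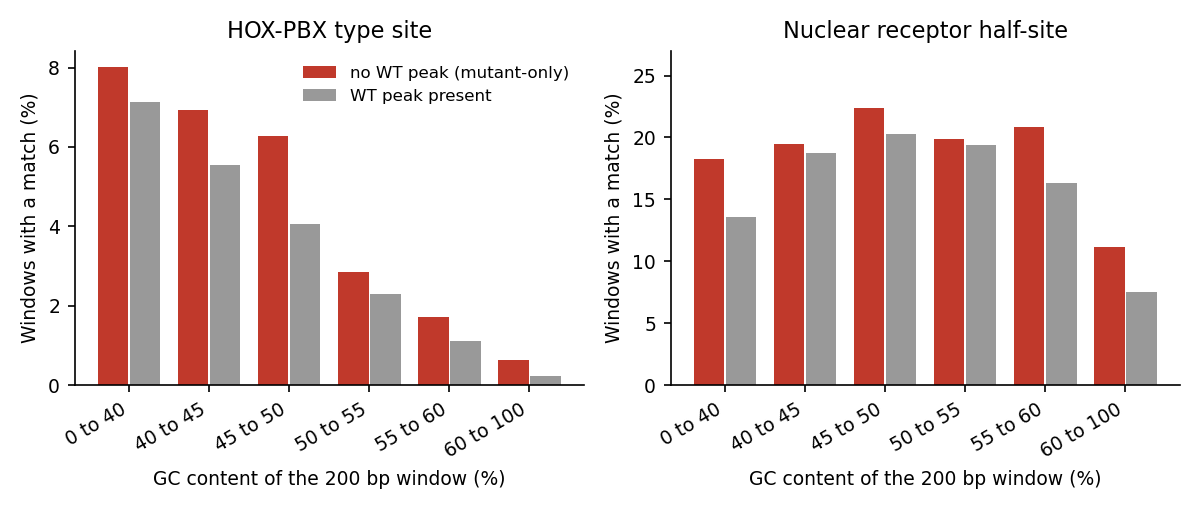
Share of 200 bp windows around region midpoints (y axis, %) with the HOX-PBX type site (left) or the nuclear receptor half-site (right), by GC content of the window (x axis, %), in 5218 mutant-only regions (red) and 52536 regions that WT also called (grey). The red bar is the higher in each of the 6 classes in both panels; in the class of 45 to 50% GC the HOX-PBX type site is in 6.27% against 4.05%.

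Other motifs in the same windows differed less in proportion than TGATTNAT. Of these, TAATTA and TGANTCA differed more in proportion than AGGTCA did (20.1% against 16.4%). TAATTA, a homeodomain core, was found in 6.84% of mutant-only and 4.92% of WT-shared regions, TGANTCA, the AP-1 site, in 6.98% and 5.30%, and GATAAG, bound by zinc finger factors such as Gata2, in 5.92% and 5.08%. The E-box CAGCTG, a site of basic helix-loop-helix factors, was found in 16.3% and 15.6%, and the E-box CATCTG in 19.2% and 17.1%. Over all merged regions the shares were 4.45%, 6.31%, 5.94%, 14.7% and 18.8% in the same order. All but GATAAG thus stood above both comparisons. By GC content the AP-1 site was also the more frequent in mutant-only regions in every class. Its shares were 6.98% against 6.89% at up to 40% GC and 6.66% against 4.46% at 55 to 60%. None of the other motifs here was the more frequent in every class. The homeodomain core was the more frequent at up to 45% and at 50 to 55%. In the remaining classes it was the less frequent, with 5.79% against 6.05% at 45 to 50%.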

How the data were processed

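Anti-NR2F1 single-cell CUT&Tag was measured in 2 WT and 2 Fam5snv/snv libraries. The authors deposited, for each library, cell barcodes, called peaks and a matrix of counts (whole numbers of cut sites in each peak of each barcode), made with Cell Ranger-ATAC on mm10 (the methods name 2.0.0, the matrix headers 1.2.0), with peaks called per library. Counts were summed over barcodes, which are not replicates, with no further cell filter or doublet caller. At most 0.799% of barcodes were shared by any library pair. Peaks were joined and annotated with GENCODE M21, and sequences come from RefSeq GRCm38, read with pysam 0.24.0 under Python 3.11.15 and pandas 2.3.3. The code was tested on simulated data. No statistical test was run: regions are described by counts, shares and medians. Named regions are the 10 strongest, 5 widest and 5 in most barcodes, those at promoters of listed genes, those with a direct repeat, those near Gata2, Gata3, Nr2f1 and Nr2f2, and 3 on either side of the minimum; some genes under this rule are not reported here. Regions, gene lists and motifs were chosen with earlier results of these data known. Alternatives were other minimums, overlaps, windows and promoter sizes, and leaving out each library.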

Additional observations from a re-analysis of the deposited data

Results flagged for a closer look

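On chromosomes X and Y, which the choice of regions left out, 65 of 2743 merged regions had a peak and at least 20 cut sites in both Fam5snv/snv libraries and no WT peak, and 0 had the mirror pattern. They are given because signal was present in data that the comparisons do not use.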

How the results depend on the processing

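No paired analysis was possible because no test was run: the libraries share only a replicate number and the WT libraries have no count in these regions. With a minimum of 10 cut sites in each mutant library there were 13357 regions (median width 695 bp, promoter share 3.83%), and with 40 there were 945 (1341 bp, AGGTCA 18.3%, WT peak within 5 kb 71.3%). With no minimum there were 22910 (565 bp, promoter 3.62%, AGGTCA 21.5%). Without regions that had a WT peak within 1 kb the promoter share was 3.69%. It was 3.41% and 6.77% for promoters of 500 and 2000 bp on either side, and 10.7% for starts of all annotated genes. The median width covered by both mutant libraries was 541 bp. AGGTCA was in 39.996% within 250 bp of the midpoint and in 21.8% around the midpoint of the stretch covered by both mutant libraries. A WT peak lay within 1 kb of 22.0% and within 10 kb of 83.7%. When each library was left out in turn, the number of regions was 5943 to 22828, the median width 622 to 1085 bp, the promoter share 3.81% to 8.57%, the AGGTCA share 18.5% to 20.6% and the share with a WT peak within 5 kb 33.6% to 74.2%, with the highest number, width and promoter share and the lowest shares with AGGTCA and with a WT peak without WT replicate 2. The TGATTNAT share, an alternative series added after the data were seen, was 3.76% against 2.73% of regions with a WT peak without WT replicate 2, 4.11% against 2.90% without Fam5snv/snv replicate 1 and 4.25% against 3.06% without Fam5snv/snv replicate 2. It was thus the higher in each leave-out, 5.06% against 2.93% without WT replicate 1 included.

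The low totals of cut sites in peaks of the WT libraries limit what can be read from a missing WT call, and weak regions carry few cut sites. The counts cover sampling of fragments only, and most cut sites come in pairs from the ends of a fragment. Peak files give no height, so signal in WT below the call was not analysed here.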
